A study of Mus musculus with 6 samples.

Results

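The CCN genes encode a small family of matricellular proteins, which are secreted into the extracellular matrix and act on cells from there. The members described here are Ccn1, Ccn2, Ccn3, Ccn4 and Ccn5, known under the older names Cyr61, Ctgf, Nov, Wisp1 and Wisp2. They were found by name, through the RefSeq accession of each array probe. All 5 genes were found, each with 1 probe and 1 spot, among 41174 non-control probes and 18353 genes with a symbol on the array. Each of the 5 probes was well above background on all 6 arrays.

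The study profiled primary astrocytes from the cerebral cortex of C57BL/6 mouse fetuses at embryonic day 18, bought as ready cultures, on one-colour Agilent whole-genome arrays. At 3 weeks after plating the cells received a mixture of miR-29 family precursors (miR-29a, miR-29b, miR-29c, at 1 to 2 to 1), or the negative control precursor (Pre-miR Negative Control1), at 80 nM by lipid transfection. RNA was taken 48 h later, and the stated transfection efficiency was above 90%. Each group has 3 arrays from triplicate RNA extractions. The labels do not say whether these came from separate cultures, and if they did not, the p-values here cover technical spread alone. The precursors carried human names. A transfected precursor is not under the control of the miR-29 genes of the cell, which limits the design as a model of miR-29 in a normal astrocyte, and the arrays measure RNA and not protein.

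CCN proteins are built from cysteine-rich modules that resemble an insulin-like growth factor binding domain, a von Willebrand type C repeat, a thrombospondin type 1 repeat and a C-terminal cysteine knot. They bind integrins, heparan sulfate proteoglycans and growth factors, and so tie the matrix to cell adhesion and to growth factor signals. The transcription of Ccn1 and Ccn2 follows serum, mechanical tension and TGF-beta, and both are widely used as readouts of the coactivators YAP and TAZ on TEAD factors. A miRNA such as miR-29 guides a silencing complex to messenger RNAs, mostly through pairing of its seed, and the miR-29 family is best known for lowering the RNA of matrix proteins such as collagens.

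The 3 transfected miRNAs share their seed, and the mature sequences show how alike the agents are. They are the mouse entries of RefSeq (table for GRCm38.p6), printed 5′ to 3′ with bases 2 to 8, the seed, in capitals. Of 1738 mature mouse entries in that table, only these 3 names carry this seed.
mmu-miR-29a-3p: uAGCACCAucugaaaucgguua
mmu-miR-29b-3p: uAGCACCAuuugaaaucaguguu
mmu-miR-29c-3p: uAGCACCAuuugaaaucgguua
Counted from the 5′ end, miR-29c differs from miR-29a by C10U alone. miR-29b, which is 23 bases long against 22 for the others, differs from miR-29a by C10U, G18A, U21G and A22U. The arrays hold the effect of the mixture, so the share of each miRNA in it was not tested.

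The RNA of all 5 CCN genes was lower after miR-29 transfection, by sizes that ran from 3.18-fold for Ccn3 and 1.97-fold for Ccn2 through 1.52-fold for Ccn5 to 1.27-fold for Ccn4 and 1.12-fold for Ccn1. All 5 probes were called lower (limma, adjusted p under 0.05), where 23.5% of all 26414 tested probes were called lower and 34% higher. Ccn1 only just passed (limma adjusted p = 0.0489) and was called in 6 of 19 other settings. On all 5 probes, each miR-29 array lay below each control array, which was the case for 27.2% of tested probes. The median log2 fold change was -0.60 over the 5 genes and 0.06 over all tested genes with a symbol. In bulk RNA, fewer cells of a type and less RNA per cell cannot be told apart.

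**Figure D1:**
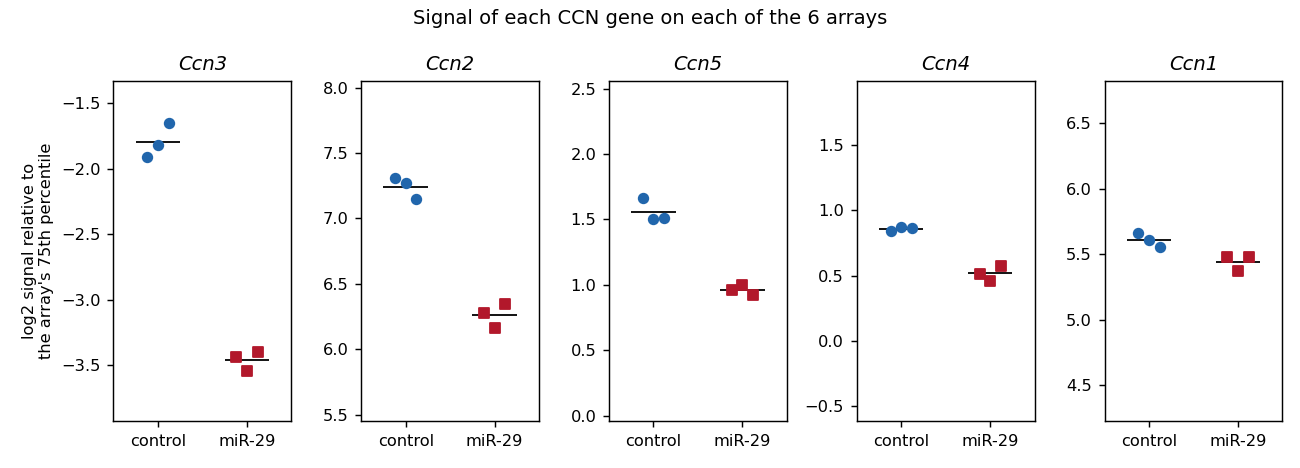
Signal of each CCN gene on each array, as log2 relative to the 75th percentile of that array. Circles are the 3 control arrays, squares the 3 miR-29 arrays, bars the group means, and all panels span the same number of log2 units. The groups do not overlap in any panel, with the widest gap for Ccn3 (means -3.46 and -1.79) and the narrowest for Ccn1 (means 5.44 and 5.61).

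Ccn3 (probe A_52_P105537), known for restraining cell growth and for binding Notch1, had the largest fall of the family. Its log2 signal relative to the 75th percentile of the array was -3.44, -3.55 and -3.40 with miR-29 (arrays 1, 2 and 3), against -1.91, -1.82 and -1.65 in the controls (arrays 1, 2 and 3). The groups were more than 1 log2 unit apart, and the control arrays were more spread (range 0.26) than the miR-29 arrays (range 0.15). The log2 fold change was -1.67 (SE 0.08, 95% interval -1.87 to -1.47, limma adjusted p = 4.93e-05), which left 31.5% of the control level. Only 0.76% of tested probes had a larger fall. The Ccn3 spot was dim, with processed signals of 44.1, 47.3 and 53.9 with miR-29, against 126.2, 134.4 and 199 in the controls. With a normexp background correction with an offset of 50, the log2 fold change of Ccn3 was -0.95 (limma adjusted p = 1.42e-05). An offset compresses dim signals, but its part in this smaller fall was not tested.

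Ccn2 (probe A_51_P157042), the connective tissue growth factor that TGF-beta induces in fibrosis, had log2 signals of 6.27, 6.16 and 6.35 with miR-29. The controls were at 7.31, 7.27 and 7.15. Every miR-29 array was at least 0.80 log2 units below every control array. The processed signals, before scaling, ran from 37026 to 46257 with miR-29, and from 73088 to 88740 in the controls, and no spot was saturated. The log2 fold change of Ccn2 was -0.98 (SE 0.07, 95% interval -1.16 to -0.81, limma adjusted p = 0.000146), and 4.04% of tested probes fell further. With normexp it was -0.99.

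Ccn5 (probe A_51_P390804), which lacks the C-terminal cysteine knot module of the other members, had log2 signals of 0.96, 1.00 and 0.92 with miR-29, against 1.67, 1.51 and 1.51 in the controls. Control array 1 was the highest of the 6, and the lowest control array was still about 0.5 log2 units above the highest miR-29 array. The log2 fold change was -0.60 (SE 0.06, 95% interval -0.76 to -0.45, limma adjusted p = 0.00053). Larger falls were seen in 10.6% of tested probes.

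Ccn4 (probe A_51_P220343), a Wnt-induced member first described as a target of WNT1 signalling, had log2 signals of 0.52, 0.46 and 0.58 with miR-29, against 0.84, 0.87 and 0.87 in the controls. The control arrays were nearly level (range 0.02) and all lay above the miR-29 arrays. The log2 fold change of -0.34 (SE 0.05, 95% interval -0.47 to -0.22, limma adjusted p = 0.00208) left 78.9% of the control level. Without any scaling between arrays Ccn4 was not called (-0.31, limma adjusted p = 0.286). At this size the change was common, since 20.8% of tested probes fell further.

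Ccn1 (probe A_51_P252859), an immediate-early gene that serum induces and whose product promotes adhesion through integrins, moved least. Its log2 signals were 5.48, 5.37 and 5.48 with miR-29, against 5.66, 5.61 and 5.55 in the controls. The groups were separated by only 0.07 log2 units, less than the range within either group (0.11 in each). Before scaling, the processed signals overlapped, at 21382, 22887 and 25319 with miR-29, against 23994, 23087 and 29388 in the controls. The log2 fold change was -0.16 (SE 0.06, 95% interval -0.30 to -0.02) and just passed the threshold (limma adjusted p = 0.0489). It lost the call when any 1 of the 6 arrays was left out (log2 fold change -0.19 to -0.13, limma adjusted p from 0.064 to 0.147) and under 7 of the other 13 settings tried.

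**Figure D2:**
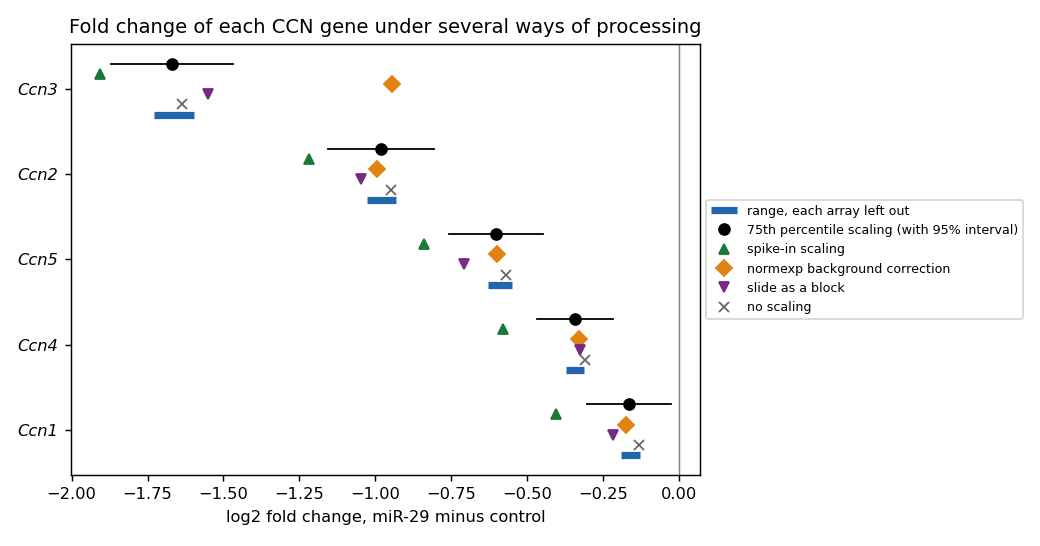
Log2 fold change (miR-29 minus control) of the 5 CCN genes in the main analysis, with its 95% interval, and with other ways of processing; the thick bar is the range when each array is left out in turn. All values lie below 0, spike-in scaling moves all 5 further down (Ccn1 to -0.40), and normexp moves Ccn3 alone by a large amount (from -1.67 to -0.95).

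How far each gene fell depends on the scale that the arrays share. The array's 75th percentile was the main scale, and scaling to the 6 of 10 spike-in types detected on all arrays gave log2 fold changes of -1.91 for Ccn3, -1.22 for Ccn2, -0.84 for Ccn5, -0.58 for Ccn4 and -0.40 for Ccn1. That scale moved the median of all tested probes from 0.06 to -0.18 and their split from 6204 lower and 8989 higher to 10137 lower and 3947 higher. Relative to the median of all tested probes, the 5 genes have, by construction, the same values on both scales, -1.73, -1.04, -0.66, -0.40 and -0.22 in the same order. Ccn2, Ccn3 and Ccn5 passed the threshold in all 19 settings tried other than the main one, Ccn4 in 18 and Ccn1 in 6.

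The 6 arrays lay on 2 slides, the 3 miR-29 arrays and control array 1 on one and control arrays 2 and 3 on the other. Slide 1 is therefore the only batch with both groups, and its lone control array is assumed to vary like the miR-29 arrays. Within slide 1, and equally with slide as a block, the log2 fold changes were -1.55 for Ccn3, -1.05 for Ccn2, -0.71 for Ccn5, -0.33 for Ccn4 and -0.22 for Ccn1. With slide as a block, limma adjusted p was 0.0007, 0.00145, 0.00121, 0.0151 and 0.0604 in that order. Ccn1 was the one gene of the 5 that did not pass on this comparison. Ccn5 was further from control array 1 (-0.71) than from control arrays 2 and 3 (-0.55 each), while Ccn3 was nearest to control array 1 (-1.55, against -1.65 and -1.81).

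Ratios within an array compare the size of the falls between members. The log2 ratio of 2 CCN signals on 1 array does not depend on a scaling by 1 constant per array. Quantile normalization is not of that kind and changes the ratios. A change in the ratio means that the 2 signals, as processed, moved unequally. It still depends on the background correction, as the normexp values below show. The log2 ratio of Ccn2 to Ccn3 was 9.71, 9.71 and 9.75 with miR-29, against 9.22, 9.09 and 8.80 in the controls, a difference of 0.69. The change was larger for Ccn3 than for Ccn2 on these values, and control array 3 stood furthest from the miR-29 arrays. With normexp this difference was gone, with group means of 8.33 (miR-29) and 8.38 (control) and overlapping arrays. Normexp here changes the background model, the offset and the input signal together, and which of these moves the ratio was not tested.

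The log2 ratio of Ccn2 to Ccn5 was 5.31, 5.17 and 5.43 with miR-29, against 5.64, 5.76 and 5.64 in the controls. The difference between the groups was -0.38, without overlap. The ratio of Ccn4 to Ccn5 was -0.44, -0.53 and -0.34 against -0.82, -0.64 and -0.64 in controls, a difference of 0.26 with the larger change in Ccn5. The ratio of Ccn1 to Ccn4 differed by 0.18, from 4.75 in controls to 4.92 after miR-29, and the groups were 0.08 log2 units apart. The ratio of Ccn1 to Ccn2, the genes most often read together as YAP and TAZ targets, was -0.79, -0.79 and -0.87 with miR-29, against -1.65, -1.66 and -1.59 in the controls. The ratio was 1.76-fold higher after miR-29, with the larger change in Ccn2. All 10 pairs of members were compared, and in all 10 the groups did not overlap in the main analysis. The 10 ratios share the same genes and are not independent. How often ratios of other gene pairs do not overlap was not computed, so this count is not a result about the family. Each of the 10 had p = 0.1 in the two-sided exact permutation test, the smallest p that 3 arrays against 3 allow. After adjustment over the 10 pairs this permutation p was 0.1. Any ratio whose groups do not overlap gets this p, so the test adds nothing to the count.

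**Figure D3:**
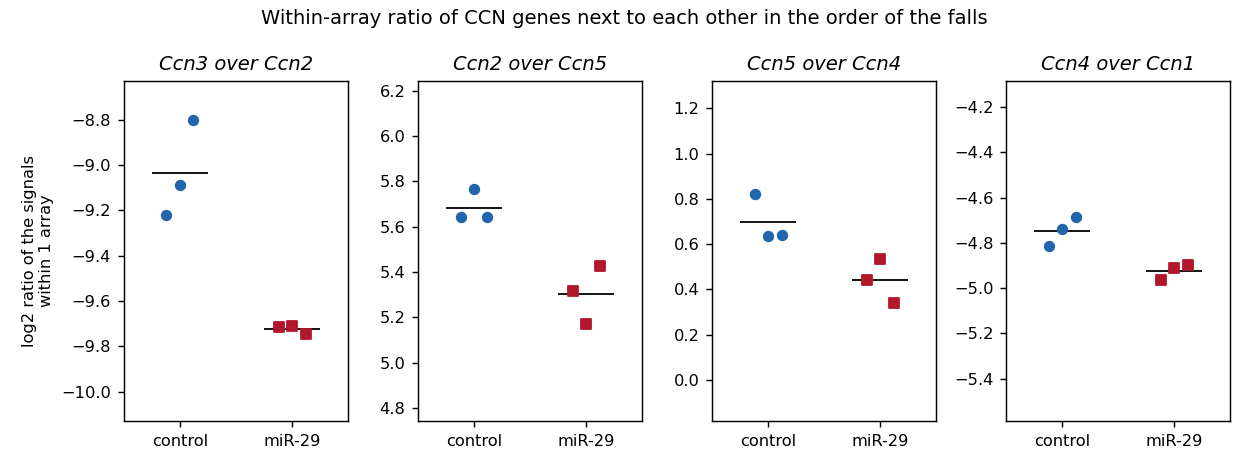
Log2 ratio of the signals of CCN genes next to each other in the order of the falls, on each array; circles are control arrays, squares miR-29 arrays, bars group means. Each ratio is of the gene that fell more over the gene that fell less, so the squares lie lower in each panel, by 0.69 for Ccn3 over Ccn2 and by 0.18 for Ccn4 over Ccn1.

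The size order Ccn3, Ccn2, Ccn5, Ccn4, Ccn1 was the same in 18 of the 19 other settings, with normexp placing Ccn2 first. Many of these settings could not change the order, so the count is not a measure of stability. Other filters, the stricter threshold, other eBayes options and the replicate block leave the fold changes as they are. Median, spike-in and no scaling and the deposited values shift all members alike. Both slide settings give the same fold changes. The order could change with normexp, quantile normalization, the slide settings and arrays left out. A further CCN gene, Ccn6, is outside the members described. Its probe was not well above background on any of the 6 arrays, so it had no fold.

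The genes whose pattern over the 6 arrays was nearest to each CCN gene were found by centring each of 13702 other genes on its own mean and taking the root mean square difference on the log2 scale. Nearest to Ccn3 were Trak2 (0.036), Tmem254a (0.055) and Tmem97 (0.056), and nearest to Ccn2 were Nectin1 (0.028), Rin3 (0.04) and Gatd1 (0.049). Bst2, Appl1 and Gtf2h1 were nearest to Ccn5 (0.018 to 0.024). Lrp10, Slc25a20 and Tgfbr2, a TGF-beta receptor, were nearest to Ccn4 (0.017 to 0.021), and Srsf9, Scaf11 and Timp1, an inhibitor of matrix metalloproteinases, to Ccn1 (0.014 to 0.02). Between CCN genes the closest pair, Ccn1 and Ccn4, was at 0.099 and the most distant, Ccn1 and Ccn3, at 0.76. These distances cannot be set against the ones above, which are the smallest among all genes compared. With 6 arrays in 2 groups this likeness is mostly likeness in the size of the change, and it is a description with no test.

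Of the receptors and binding partners of CCN proteins, 58.3% were called lower, with integrin chains in front. The list has 27 genes, of which 24 were tested. In all, 14 fell, 3 rose and the other 7 missed the threshold, against 25.3% lower and 36.5% higher among the 13706 tested genes with a symbol. Their median log2 fold change was -0.34, against 0.06 over all tested genes with a symbol. The 14 include Bmp2, which was well above background on all 3 control arrays but only 1 miR-29 array and so passed the filter through the controls alone, and 13 were lower among probes above background on all 6 arrays. Itgam did not pass the filter on dim probes, and Lrp6 was not matched to a probe.

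The 3 largest falls in that list were integrin chains. Itgb3, the beta chain of the alpha-v beta-3 integrin through which CCN1, CCN2 and CCN3 act, had log2 signals of -0.70, -0.89 and -0.86 with miR-29, against 1.61, 1.54 and 1.57 in the controls. This gap was wider than that of any CCN gene, at a log2 fold change of -2.39 (SE 0.07, limma adjusted p = 2.01e-05), or 5.23-fold lower. Itga6, a laminin receptor chain used by CCN proteins on fibroblasts, fell by 2.18 on the log2 scale (SE 0.12, limma adjusted p = 6.61e-05). Itga5, the alpha chain of the fibronectin receptor, fell by 1.72 (SE 0.07, limma adjusted p = 3.65e-05).

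The next 4 genes are named for their role, after their values were seen. Itgb1, the shared beta-1 chain, fell by 0.72 on the log2 scale (0.49 on its other kept probe). Itgav, the alpha-v chain, fell by 0.29 on its brighter probe and by 0.69 on its other kept probe, and Itgb5 was at -0.11 without passing the threshold (limma adjusted p = 0.145). The heparan sulfate proteoglycan syndecan-4, Sdc4, fell by 1.04, but its other kept probe was at -0.20 (limma adjusted p = 0.0558). Notch1, the receptor that binds CCN3, rose by 0.80 (SE 0.08, limma adjusted p = 0.000377), opposite to Ccn3 itself. Vegfa and Tgfb1, growth factors that bind CCN2, rose by 0.43 (0.35 and 0.27 on the other Vegfa probes) and 0.33, and both lost the call with spike-in scaling (0.19 and 0.09) and without scaling. Without scaling between arrays 9 genes of this list were lower and 1 higher.

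**Figure D4:**
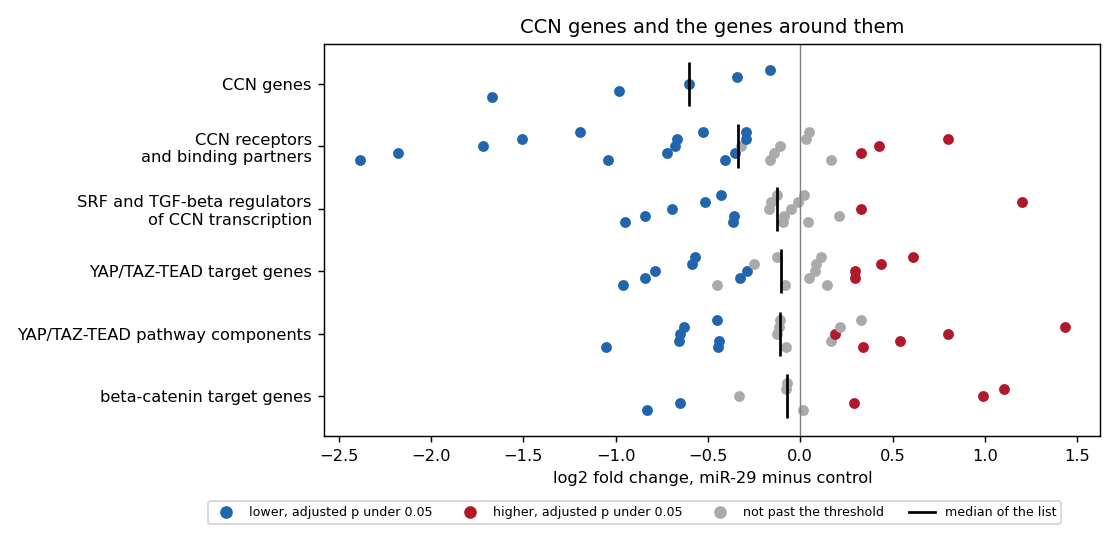
Log2 fold change (miR-29 minus control) of the CCN genes and of 5 lists of genes around them, 1 point per tested gene; blue was called lower, red higher and grey not past an adjusted p of 0.05, and the bar is the median of the list. The receptor list has its median at -0.34 and reaches -2.39 (Itgb3), while the other 4 lists have medians from -0.13 to -0.07. All 5 lists have points on both sides of 0.

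Components of the pathway from Hippo kinases to YAP, TAZ and TEAD factors had members on both sides. The list has 21 genes and 19 were tested. There were 7 lower (36.8%, against 25.3% of all tested genes), 5 higher (26.3%, against 36.5%) and 7 not past the threshold, and the median was -0.11. Tead2, a DNA-binding partner of YAP, rose by 1.44 (SE 0.07, limma adjusted p = 4.99e-05; 1.41 on its other probe) and Tead1 by 0.54 (0.47 and 0.60 on its other probes), while Tead4 fell by 1.05 (limma adjusted p = 0.000308). Frmd6, an upstream activator of the kinases, rose by 0.80 (0.99 and 0.56 on its other probes). Limd1, which restrains the LATS kinases, fell by 0.65 and by 0.91 on its other probe. The LATS1 kinase gene fell by 0.66 on its brighter probe, and its other kept probe was at 0.24 (limma adjusted p = 0.0548), so the Lats1 probes disagree.

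The coactivators themselves are named here for their role, after their values were seen. Yap1 had log2 signals of 0.50, 0.51 and 0.54 with miR-29, against 0.37, 0.31 and 0.32 in the controls. It rose by 0.19 (SE 0.05, limma adjusted p = 0.0151), but with spike-in scaling it was at -0.05 (limma adjusted p = 0.567). Wwtr1, which encodes TAZ, was at -0.12 on its brighter probe (limma adjusted p = 0.315) and at -0.42 on its other kept probe (limma adjusted p = 0.0035). Mob1a and Wwc1 were not matched to a probe.

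Other genes used as readouts of YAP and TAZ, were listed without the CCN genes. All 20 were tested, with 7 lower (35%, against 25.3% of all tested genes), 4 higher (20%, against 36.5%) and 9 not past the threshold, and the median was -0.11. Dock5, a guanine nucleotide exchange factor, fell by 0.96 (limma adjusted p = 7.36e-05), but its other kept probes were at -0.63 and 0.19. Myof, the membrane repair gene myoferlin, fell by 0.78, and its other probes were at -0.47 and -0.18. Tgfb2, a TGF-beta ligand, fell by 0.84. Fjx1, a relative of the fly gene four-jointed, rose by 0.61 (limma adjusted p = 0.000896), Arhgef17 by 0.44 (0.49 on its other probe) and Rbms3, an RNA-binding protein gene, by 0.30 (0.32 on its other probe). With spike-in scaling the list had 11 lower and 2 higher, and Rbms3 was no longer called (0.06).

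The promoter of Ccn1 is shown because TEAD factors are known to act near the start of this gene, and it was the only 1 of the 5 members with a window in the RefSeq table used. The window runs from 250 bases before to 50 after the start of the gene, at chr3:145649936-145650235 on the minus strand of GRCm38.p6, printed 5′ to 3′ on the strand of the gene. The capitals mark CATTCC, the reverse complement of the TEAD letters GGAATG.
Ccn1 promoter: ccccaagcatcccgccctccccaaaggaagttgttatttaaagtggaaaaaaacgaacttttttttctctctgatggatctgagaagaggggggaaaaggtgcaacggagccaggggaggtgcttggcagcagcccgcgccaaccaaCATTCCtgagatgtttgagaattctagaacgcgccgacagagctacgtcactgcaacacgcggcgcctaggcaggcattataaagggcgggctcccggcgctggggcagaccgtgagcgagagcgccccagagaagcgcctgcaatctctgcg
On both strands, GGAATG was found once, 103 bases before the start, and the TATA letters TATAAA once, 25 bases before it. The AP-1 letters TGANTCA and the CArG box were not in this window. GGAATG is present in 14.7% of all 32851 windows of this length, and TATAAA in 13.6%, TGANTCA in 7.81% and the CArG box in 1.63%. Among the other YAP and TAZ readouts, 14 of 20 genes had windows, and GGAATG was found for 6 of them (Amotl2, Ankrd1, Axl, Crim1, Lats2 and Ptpn14). A match of letters is a description and not evidence of binding.

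Genes of the SRF and TGF-beta routes to CCN transcription had 7 lower (36.8%, against 25.3% of all tested genes), 2 higher (10.5%, against 36.5%) and 10 not past the threshold among 19 tested, with a median of -0.13. Mrtfb, a coactivator of serum response factor, fell by 0.95 (SE 0.08, limma adjusted p = 0.000243). Its probe was dimmer than that of Ccn3, with mean log2 signals of -4.55 with miR-29 and -3.60 in the controls. Srf itself, named after its values were seen, fell by 0.36 (limma adjusted p = 0.00399). Tgfb2 also belongs here. The transcription factor gene Ets1 fell by 0.70 on its brightest probe, with -0.32 and 0.20 on the others. The type I TGF-beta receptor gene Tgfbr1 rose by 1.20 (SE 0.10, limma adjusted p = 0.000238; 0.60 on its other probe), and Tgfb1 was the other riser. Spike-in scaling gave 13 lower and 1 higher in this list, and no scaling 3 lower and 1 higher.

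Target genes of beta-catenin, the route that names the WISP members, had 2 lower, 3 higher and 4 not past the threshold among 9 tested of 13 listed, with a median of -0.07. The shares of 22.2% lower and 33.3% higher are near those over all tested genes (25.3% and 36.5%). Lef1, Sp5 and Rnf43 did not pass the filter and Ccnd1 was not matched to a probe. Myc, a growth-promoting transcription factor, fell by 0.83 (limma adjusted p = 0.000571; 0.97 and 0.93 on its other probes), and the Wnt antagonist gene Dkk1 fell by 0.65. Tcf7, a DNA-binding partner of beta-catenin, rose by 1.10 (limma adjusted p = 0.000394; 0.82 on its other probe). Nkd1, a feedback inhibitor, rose by 0.99 (0.77 on its other probe) and the stem cell receptor gene Lgr5 by 0.29. Lgr5 was not called with spike-in scaling (0.05).

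The cells carried astrocyte markers, and markers of several cell types differed between the groups. For comparison, 25.3% of all tested genes were called lower and 36.5% higher. Of 10 astrocyte markers, 6 rose, 1 fell and 3 missed the threshold, and their summed log2 level was 6.31 to 6.46 with miR-29, against 5.86 to 5.96 in the controls. Aldoc and Aldh1l1 held 79.7% of that summed signal, and the marker that fell was Gja1 (-0.35). Aldoc, Gja1, Slc1a2 and Fgfr3 are named after their values were seen. Slc1a2, 1 of the 3 that missed the threshold, was at 0.28 on its brightest probe (limma adjusted p = 0.0625). Its other kept probes were called higher (0.34, 0.47 and 0.42). Fgfr3, counted among the risers at 0.37, had other kept probes at 0.27 and at -0.36 (limma adjusted p = 0.00918 and 0.284). The glutamate transporter gene Slc1a3 rose by 1.67, Aldh1l1 by 0.73 and Gfap by 0.60 (0.62 on its other probe). The water channel gene Aqp4 was at 0.15 on its brightest probe and at -0.20 and -0.13 on its others, none past the threshold (limma adjusted p = 0.328, 0.0824 and 0.228).

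Fibroblast, meningeal and mural cells also make CCN proteins. Of 10 of their markers 9 were tested, 4 of them higher, 2 lower and 3 not past the threshold, with a summed level of 8.95 to 9.07 against 8.40 to 8.57 in controls. The contractile genes Acta2 (log2 fold change 0.60, with 0.54 and 0.83 on its other probes) and Tagln (0.67, with 0.55 on its other probe) held 81.3% of that summed signal, while the mural marker gene Pdgfrb fell by 0.68 (these 3 named after their values were seen). Microglial markers passed the filter for 3 of 8 genes (2 lower, 1 higher), with Aif1, Cx3cr1, Itgam, Ptprc and Trem2 below it. Their summed level of 1.72 to 1.83 against 2.15 to 2.33 was 96.7% Tmem119, so it is in effect the value of 1 gene. Csf1r, 1 of the 2 lower and named after its values were seen, was at -1.40 on its brighter probe (limma adjusted p = 0.0172). Its other kept probe was called higher (0.36, limma adjusted p = 0.0257), so the Csf1r probes disagree. Oligodendrocyte lineage markers were tested for 7 of 8 (3 lower, 3 higher, summed level 2.66 to 2.78 against 2.77 to 3.53, 76.5% of it Mag). Control array 1, on the slide of the miR-29 arrays, was at 2.77 and within their range, and control arrays 2 and 3 were at 3.53 and 3.39. Neuronal markers were tested for 7 of 8 (2 lower, 1 higher, 2.32 to 2.34 against 2.34 to 2.37). Of the lower calls, Pdgfra and Gad2 were not called on their other kept probes (0.10 and -0.04, limma adjusted p = 0.551 and 0.898). Endothelial markers were tested for 3 of 6, at -2.48 to -2.39 against -2.86 to -2.69. The 2 called higher, Kdr and Vwf, were well above background on all 3 miR-29 arrays but only 2 control arrays, so they passed the filter through the miR-29 group and support no difference. The part of these markers in the CCN values was not tested.

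On the 6 arrays the 75th percentile of the processed signal was 473.7 to 625.6, and 61.9% to 66.8% of probes were well above background. Arrays of 1 group correlated at r = 0.994 to 0.998 over the tested probes and arrays of different groups at 0.974 to 0.984, and no pair of arrays was identical. The number of arrays limits the precision of every value.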

How the data were processed

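Per the file headers, the authors' spot intensity is the processed signal of Agilent Feature Extraction 10.7.3.1 (10.7 per the submitters' processing notes). It is background-subtracted, linear and not normalized between arrays. The value table the authors deposited holds the same intensity times 1 constant per array (2.63 to 3.43). There were 0 columns of other samples. Control and outlier-flagged spots were left out, values under 1 were set to 1, spots of a probe were averaged, and the array's 75th percentile was subtracted after log2. Probes were kept if flagged well above background on each of the 3 arrays in 1 group or both (26414 of 41174). Probes were named by unversioned RefSeq accession: 26933 matched 1 symbol and 14241 none. The array design is on another build than the RefSeq table, so no gene coordinates from it are used beyond the promoter window.

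Groups were compared with lmFit and eBayes of limma 3.58.1 under R 4.3.3; p-values are two-sided and adjusted by Benjamini-Hochberg over all kept probes. SE and intervals come from this fit, and the code was tested on simulated data. For a listed gene the brightest kept probe on average stands in; its other kept probes are given beside a fold change the text prints for it. The genes named are all 5 members, up to 3 genes called lower and 3 called higher with the largest change per list, the 3 nearest patterns per member, and Gfap, Slc1a3, Aldh1l1 and Aqp4. Members and lists were chosen with earlier results of these data known. Of the listed receptors and binding partners, 1 untested gene is not reported here.

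Alternatives were normexp (median and background median signal, since the files give no mean signal), quantile, median, spike-in and no scaling, the deposited table, other filters, thresholds and eBayes options, slide or replicate as a block, slide 1 alone and each array left out. Recomputing the within-array ratios was chosen after seeing the data. Microarrays give no depth.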

Additional observations from a re-analysis of the deposited data

How the results depend on the processing

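Of the recomputed values of single CCN genes, 81 kept their direction and side of the threshold, and 14 kept their direction but lost the call. Ccn1 lost it with median centring (-0.15), no scaling (-0.13), no filter on dim probes (-0.16), a threshold of 0.01 (-0.16), slide as a block or slide 1 alone (-0.22 in each), and with each array left out (-0.19 to -0.13, limma adjusted p from 0.064 to 0.147). Ccn4 lost it without scaling (-0.31), where 3 CCN genes were called lower. The cause was not tested.

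The replicate numbers are shared between groups, and whether they pair the arrays is unsettled. Deviations of same-numbered arrays correlated at 0.14, 0.10 and 0.27, over 0.1 for 2 of 3 pairs. Arrays with different numbers correlated at -0.24 to 0.03, and all 6 arrays correlated best with their own number. The main fit has no block. With the replicate block Ccn1 was at -0.16 (limma adjusted p = 0.069), 4 CCN genes were called, and all probes gave 6239 lower and 9126 higher calls.

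In the lists, 17 recomputed counts moved by over 1.5 times and 183 did not. Without scaling, YAP and TAZ pathway components had 4 lower and 3 higher, their targets 1 higher, CCN receptors 9 lower and 1 higher, and the SRF and TGF-beta list 3 lower and 1 higher. With spike-in scaling, components had 3 higher, targets 11 lower and 2 higher, receptors 1 higher, the SRF and TGF-beta list 13 lower and 1 higher, and beta-catenin targets 5 lower. With slide as a block and with slide 1 alone, components had 3 higher, and with slide 1 alone the SRF and TGF-beta list had 1 higher. Yap1 reversed with spike-in scaling (-0.051), and Aqp4 with spike-in scaling (-0.090) and with slide as a block or slide 1 alone (-0.076 in each). Without scaling all probes gave 3188 lower and 4249 higher calls.

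The change in the Ccn2 to Ccn3 ratio (log2) reversed with normexp (-0.046). Normexp gave 0.77 for Ccn1 to Ccn3, -0.62 for Ccn3 to Ccn4 and -0.35 for Ccn3 to Ccn5, and quantile normalization 0.94 for Ccn1 to Ccn2 and -0.78 for Ccn2 to Ccn4. Slide 1 alone gave 0.11 for Ccn1 to Ccn4, -0.84 for Ccn3 to Ccn5 and 0.38 for Ccn4 to Ccn5. Signal over background limits Ccn3 most: its median spot signal was 84 to 94 on the miR-29 arrays over a local background of 20 to 25.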
